A study of Mus musculus with 6 samples.

Results

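DNA replication was followed with 41 genes in the inner enamel epithelium (IEE) of mouse embryos with and without epithelial *Kdf1*. They were taken by symbol from a table of 18152 genes, from a list that covers licensing factors, licensing inhibitors, helicase activators, single-strand and fork proteins, the sliding clamp with its loaders, replicative polymerases, strand maturation and uracil removal, nucleotide synthesis and chromatin assembly. All 41 symbols were found, and all 41 passed the filter on low counts, with 33 estimated counts as the lowest value of any of them in any library.

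DNA is copied once per cell cycle. In G1 the origin recognition complex, Cdc6 and Cdt1 load rings of the Mcm2 to Mcm7 proteins onto origins, a step called licensing. At the start of S phase Cdc45 and the GINS complex turn these rings into running helicases, and polymerases, the clamp Pcna and a supply of deoxynucleotides do the synthesis. The transcripts of many of these genes rise in late G1 and S phase under E2F transcription factors, which makes them a common readout of proliferation. In the tooth germ, IEE cells divide while the cusps take shape and leave the cycle as they become ameloblasts, the cells that secrete enamel matrix.

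RNA-seq was done on IEE of the mandibular first molar, cut out by laser capture microdissection from head sections at E18.5. The groups were *Kdf1* fl/fl controls (3 libraries, labelled wild type) and *K14-Cre;Kdf1* fl/fl (3 libraries, labelled as *Kdf1* deletion and called knockouts below), both on a C57BL/6J background. Both groups carry the floxed allele, and the groups differ by Cre driven by the keratin 14 promoter, which is active in epithelial cells generally and not in the IEE alone. The labels name the libraries of a group as biological replicates, and whether a library came from 1 embryo or from several is not given in the sources used here. The sources pose the comparison as a question about the proliferation and differentiation of IEE cells in the developing cusps.

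Library totals lay between 14713918 and 16675133 estimated counts. *Kdf1*, the targeted gene, was at 52.5, 44.3 and 52.7 normalised counts (CPM, estimated counts scaled to an equal library size) in the controls and at 0, 0.0629 and 0 CPM in the knockouts (adjusted p 0.000288 in edgeR), so each library matched its label. The last 3 values are below the level of 3 counts, which is 0.189 to 0.198 CPM in those libraries and covers counting error only. The epithelial keratin *Krt14* was present in every library, at 1629 to 2944 TPM (the deposited level per transcript length) in the controls and 582 to 1205 TPM in *K14-Cre;Kdf1* fl/fl. In RNA of many captured cells, fewer cells in S phase, less of a transcript per cell and a different mix of cells cannot be told apart.

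E2F-type letters, a sequence feature that the choice of members did not use, were more frequent in the promoters of the replication genes than in promoters at large. RefSeq's promoter table for GRCm38.p6, which gives the 300 bases around each start (250 before, 50 after), held 34 of the 41 genes. The others were *Mcm4*, *Gmnn*, *Gins1*, *Gins2*, *Rfc2*, *Dscc1* and *Pole*. The letters searched were the E2F-type octamers TTTCCCGC, TTTGGCGC, TTTCGCGC and TTTGCCGC on both strands, where matches on opposite strands may overlap. At least 1 match lay in 16 of the 34 genes (47.1%), against 2.6% of all 27025 genes in that table and 4.55% of the 11219 genes that were tested here and had a promoter entry. The share was 20.9% (9 of 43) in a list of further replication genes and 4.76% in a list of mitosis genes, and 18 of the 34 members had none. The sites below, each on its gene's strand with 10 flanking bases a side and the octamer in capitals, show the letters in genes of licensing, of its control, of synthesis and of chromatin that are described further on.
Cdc6, chr11:98908003-98908030, plus strand: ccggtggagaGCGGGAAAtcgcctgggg
Mcm3, chr1:20820276-20820303, minus strand: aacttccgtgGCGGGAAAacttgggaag
Mcm5, chr8:75109346-75109373, plus strand: cgccaagaacTTTCGCGCcaaaacgtcc
Mcm6, chr1:128359735-128359762, minus strand: attggacgggTTTGGCGCgaagtagctc
Mcm7, chr5:138171850-138171877, minus strand: ggtgacgacgTTTCGCGCcaatttcggt
Dtl, chr1:191575535-191575562, minus strand: gtgacgtcagTTTGGCGCggagtttggc
Pola1, chrX:93632276-93632303, minus strand: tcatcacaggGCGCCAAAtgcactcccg
Lig1, chr7:13278842-13278869, plus strand: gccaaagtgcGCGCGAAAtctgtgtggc
Uhrf1, chr17:56304118-56304145, plus strand: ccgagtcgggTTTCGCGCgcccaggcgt

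In *Cdc6*, *Mcm3*, *Pola1* and *Lig1* the octamer printed is on the opposite strand and reads as its reverse complement. The licensing genes *Orc1*, *Cdc6*, *Cdt1*, *Mcm3*, *Mcm5*, *Mcm6* and *Mcm7* all had a match, and *Orc6* and *Mcm2* had none. None of the nucleotide synthesis genes *Rrm1*, *Rrm2*, *Tyms* and *Tk1* had one in this window. The letters CCAAT, on either strand, lay in 61.8% of the 34 genes, 46.5% of the further replication genes and 81.0% of the mitosis genes. Their share was 41.1% of all genes and 43.1% of the tested genes with an entry. The letters TTTGAA, known from promoters of G2 and mitosis genes, lay in 8.82% of the 34 replication genes. They lay in 20.2% of all genes and 14.6% of the tested genes with an entry. In a list of 25 mitosis genes they lay in 71.4% of the 21 with an entry. These are matches of letters and were not tested as binding sites.

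The knockouts were compared with the controls by the quasi-likelihood F-test of edgeR, and a gene was called when its log2 fold change was at least 1 in either direction and its adjusted p was at most 0.05. No member was called, beside 61 (0.432%) of the 14131 tested genes. The paper reports more differentially expressed genes at the same thresholds, by a test that it does not name. At the adjusted p alone the count of members was also 0, beside 0.368% of all genes lower and 0.177% higher. At shares this low, a count of 0 among 41 genes does not set the members apart from other genes. The lowest Benjamini-Hochberg adjusted p of a member in edgeR was 0.0726, for *Rpa1*. At an unadjusted p of at most 0.05, 4 of 41 members (9.76%), *Rpa1*, *Rfc2*, *Pola1* and *Cdc6*, were lower and 0 were higher, beside 11.6% and 13.0% of all genes. With the replicate number as a block, edgeR called 1 member lower at the adjusted p (background 4.44%) and 8 at the unadjusted p (background 13.9%), and DESeq2 called 1 (background 5.25%) and 5 (background 11.2%). The member called was *Rpa1* in both. The replicate numbers were read as pairs from a correlation in these same data, and no label or method ties them.

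The direction was more uniform than the calls. The log2 fold change was below 0 in 37 of 41 members and in 50.5% of all genes, with a median of -0.24 over the members and -0.00 over all genes. The 4 members above 0 were *Orc6*, *Cdt1*, *Rfc3* and *Pole2*, and none of these 4 passed the test. The medians were -0.16 for the 10 licensing genes, -0.24 for the 6 polymerase genes and -0.30 for the 4 nucleotide synthesis genes. For the other roles they ran from -0.08 for the 2 licensing inhibitors to -0.44 for the 3 genes of strand maturation and uracil removal. The 2 genotypes did not overlap in *Cdc6*, *Rpa1*, *Rfc2*, *Pola1* and *Ung*, 5 members that were all lower in *K14-Cre;Kdf1* fl/fl, beside 16.2% of all genes lower and 14.5% higher. The 95% confidence interval of the log2 fold change lay inside -1 to 1 for 24 members, reached -1 or below for 17 and reached 1 for 0.

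**Figure D1:**
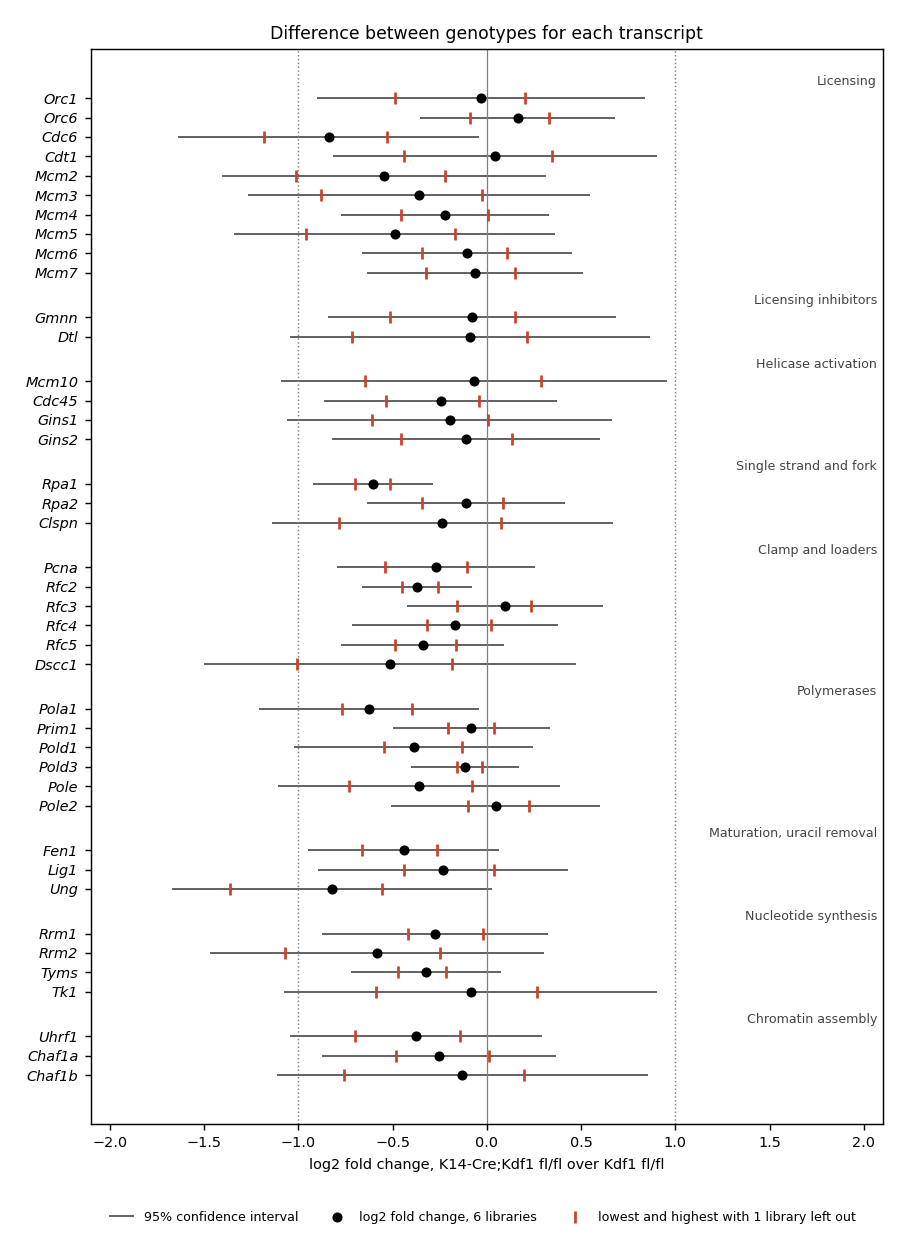
Log2 fold change of CPM (x axis, *K14-Cre;Kdf1* fl/fl over *Kdf1* fl/fl) for each of the 41 genes, with bars for the 95% confidence interval of edgeR and red ticks for the lowest and highest value when 1 of the 6 libraries was left out. The intervals of *Rpa1*, *Rfc2*, *Pola1* and *Cdc6* exclude 0, and no interval reaches 1.

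Licensing was represented by 10 genes. *Cdc6*, the loader of the Mcm rings, had 14.8, 13.1 and 13.5 CPM in the controls and 7.66, 11.3 and 4.22 CPM in the knockouts. All 3 knockout libraries were below all 3 controls, with a log2 fold change of -0.84 ± 0.34 (SE), an unadjusted p of 0.0421 and an adjusted p of 0.186 in edgeR. *Mcm7*, a subunit of the ring and the licensing gene with the highest level per length (108 ± 20.02 TPM in the controls and 108 ± 36.2 TPM in the knockouts, SD, n = 3), had 159, 133 and 117 CPM against 121, 178 and 92.6 CPM. The knockout values of *Mcm7* lay on both sides of the control range, and the log2 fold change was -0.06 ± 0.24 (SE, adjusted p 0.897 in edgeR). The exons of *Mcm7* overlap those of *Ap4m1* and *Cops6* on the opposite strand in the GENCODE annotation, and whether reads were counted by strand is not given in the sources used here. Exons of *Orc1*, *Orc6*, *Cdc45*, *Gins2*, *Rfc2*, *Rfc4*, *Rfc5*, *Dscc1*, *Pole*, *Fen1*, *Lig1*, *Tk1* and *Chaf1a* overlap a gene on the opposite strand in the same way. On the same strand, exons of *Pole2* overlap the protein-coding entry *Gm49384*, and those of *Rpa1* and *Mcm7* overlap microRNA entries. Counting by strand would not separate these. Of the remaining 8 licensing genes, *Orc6*, a subunit of the origin recognition complex, and *Cdt1*, the partner of Cdc6, were the 2 above 0, at 0.16 ± 0.22 and 0.04 ± 0.37 (SE).

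The licensing inhibitors *Dtl* and *Gmnn* act after S phase has begun. *Dtl*, the substrate adaptor of the ubiquitin ligase that removes Cdt1, had 45.3, 42.9 and 35.3 CPM in the controls and 27.7, 67.0 and 21.4 CPM in the knockouts. *Gmnn*, which encodes the Cdt1 inhibitor geminin, had 19.3, 18.53 and 15.0 CPM against 12.8, 25.9 and 11.3 CPM. In both genes 2 knockout libraries were below and 1 was above all controls. The log2 fold changes were -0.09 ± 0.40 and -0.08 ± 0.32 (SE), with edgeR adjusted p of 0.915 and 0.903.

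Helicase activation was followed with 4 genes. *Cdc45*, part of the running helicase, had 25.9, 23.9 and 19.5 CPM in the controls and 17.1, 27.2 and 14.1 CPM in the knockouts. *Gins2*, a GINS subunit, had 12.9, 12.4 and 10.7 CPM against 9.81, 16.2 and 7.32 CPM. The groups overlapped in both, and edgeR gave log2 fold changes of -0.24 ± 0.26 and -0.11 ± 0.30 (SE) with adjusted p of 0.601 and 0.849. *Mcm10*, which acts as the helicase starts, had the widest standard error of the 41 genes, 0.43.

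*Rpa1*, the large subunit of the protein that coats single-stranded DNA, was the member with the clearest difference. It had 110.1, 109 and 123.1 CPM in the controls and 70.0, 87.6 and 67.3 CPM in the knockouts. Every knockout library was below every control, and the control with the highest value was replicate 3, the replicate in which 37 of the 41 members had their lowest control value. The log2 fold change was -0.60 ± 0.14 (SE). Its Benjamini-Hochberg adjusted p of 0.0726 in edgeR became 0.0434 once the replicate number was a block, and DESeq2 gave 0.00614. The block has no basis in the labels and was read from these same data. Over all alternatives the adjusted p ran from 0.00614 to 0.285 and the log2 fold change with 1 library left out from -0.70 to -0.52. *Rpa2*, the second subunit of the same complex, overlapped between groups at -0.11 ± 0.22 (SE, adjusted p 0.793 in edgeR), and the difference between the 2 subunits was not tested. *Clspn*, which encodes the fork protein claspin, was at -0.24 ± 0.38 (SE).

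The sliding clamp and its loaders made up 6 genes. *Pcna*, the clamp that holds polymerases on DNA, had the highest level per length of all members, 236 ± 28.8 TPM in the controls and 203 ± 66.5 TPM in the knockouts (SD, n = 3). Its CPM values were 151, 131 and 127 in the controls and 94.6, 156 and 88.8 in *K14-Cre;Kdf1* fl/fl, so the groups overlapped (log2 fold change -0.27 ± 0.22 SE, adjusted p 0.491 in edgeR). The GENCODE annotation lists 2 processed pseudogenes of *Pcna*, and how reads shared with them were assigned is not given in the sources used here. *Rfc2*, a subunit of the clamp loader, had 73.1, 57.7 and 61.7 CPM against 50.2, 50.9 and 47.8 CPM. Its groups did not overlap, at -0.37 ± 0.12 (SE), with an unadjusted p of 0.0197 and an adjusted p of 0.136 in edgeR. *Dscc1*, of the loader variant that serves sister chromatid cohesion, had 7.03, 5.996 and 5.05 CPM against 3.67, 6.80 and 2.18 CPM, at -0.51 ± 0.42 (SE, adjusted p 0.484 in edgeR). *Rfc3* was the 1 loader gene above 0, at 0.10 ± 0.22 (SE).

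Among the polymerase genes, *Pola1*, the catalytic subunit of the polymerase that starts each strand, had 24.7, 27.7 and 19.96 CPM in the controls and 17.0, 19.2 and 10.7 CPM in the knockouts. The groups did not overlap, although the highest knockout value was close to the lowest control, and the log2 fold change was -0.63 ± 0.25 (SE, unadjusted p 0.0392 and adjusted p 0.180 in edgeR). *Prim1*, the primase subunit that works in the same complex and the polymerase gene with the highest level per length (42.3 ± 8.84 and 41.4 ± 6.19 TPM, SD, n = 3), had 35.8, 32.0 and 25.5 CPM against 26.8, 34.4 and 27.0 CPM. Its knockout values lay inside the control range, at -0.08 ± 0.18 (SE, adjusted p 0.807 in edgeR). The leading and lagging strand polymerase genes *Pole*, *Pole2*, *Pold1* and *Pold3* had log2 fold changes between -0.39 and 0.05, and all overlapped between groups.

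Strand maturation and uracil removal had 3 genes. *Ung*, which encodes the glycosylase that removes uracil from DNA, had 24.9, 25.0 and 24.1 CPM in the controls and 10.1, 23.1 and 8.64 CPM in the knockouts. The controls were nearly equal, and all knockout libraries were lower, 1 of them only slightly, with a log2 fold change of -0.82 ± 0.36 (SE), an unadjusted p of 0.0565 and an adjusted p of 0.216 in edgeR. *Lig1*, the ligase that joins Okazaki fragments, had 117, 106 and 78.8 CPM against 92.2, 112 and 52.7 CPM and overlapped (-0.23 ± 0.28 SE, adjusted p 0.648 in edgeR). *Fen1*, the flap nuclease that prepares these ends, was at -0.44 ± 0.22 (SE, adjusted p 0.252 in edgeR).

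Nucleotide synthesis had 4 genes. *Rrm1*, the large subunit of ribonucleotide reductase, had 222, 201 and 155 CPM in the controls and 192, 183 and 103 CPM in the knockouts. *Rrm2*, the small subunit that is made in S phase, had 67.4, 63.6 and 53.1 CPM against 36.4, 65.8 and 20.8 CPM. *Tyms*, thymidylate synthase, had 46.6, 40.1 and 39.6 CPM against 29.4, 41.5 and 30.1 CPM. The groups overlapped in all 3, with log2 fold changes of -0.28 ± 0.25, -0.58 ± 0.38 and -0.32 ± 0.17 (SE) and edgeR adjusted p of 0.537, 0.378 and 0.284. The value of *Tyms* is uncertain by the share of reads from 1 processed pseudogene. *Tk1*, thymidine kinase, was at -0.09 ± 0.42 (SE).

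Chromatin assembly had 3 genes. *Uhrf1*, which carries DNA methylation through replication, had 155, 138 and 104 CPM in the controls and 90.5, 146.5 and 69.1 CPM in the knockouts, with overlapping groups (-0.38 ± 0.28 SE, adjusted p 0.450 in edgeR). *Chaf1a* and *Chaf1b*, the chaperone subunits that place histones on new DNA, were at -0.26 ± 0.26 and -0.13 ± 0.42 (SE).

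**Figure D2:**
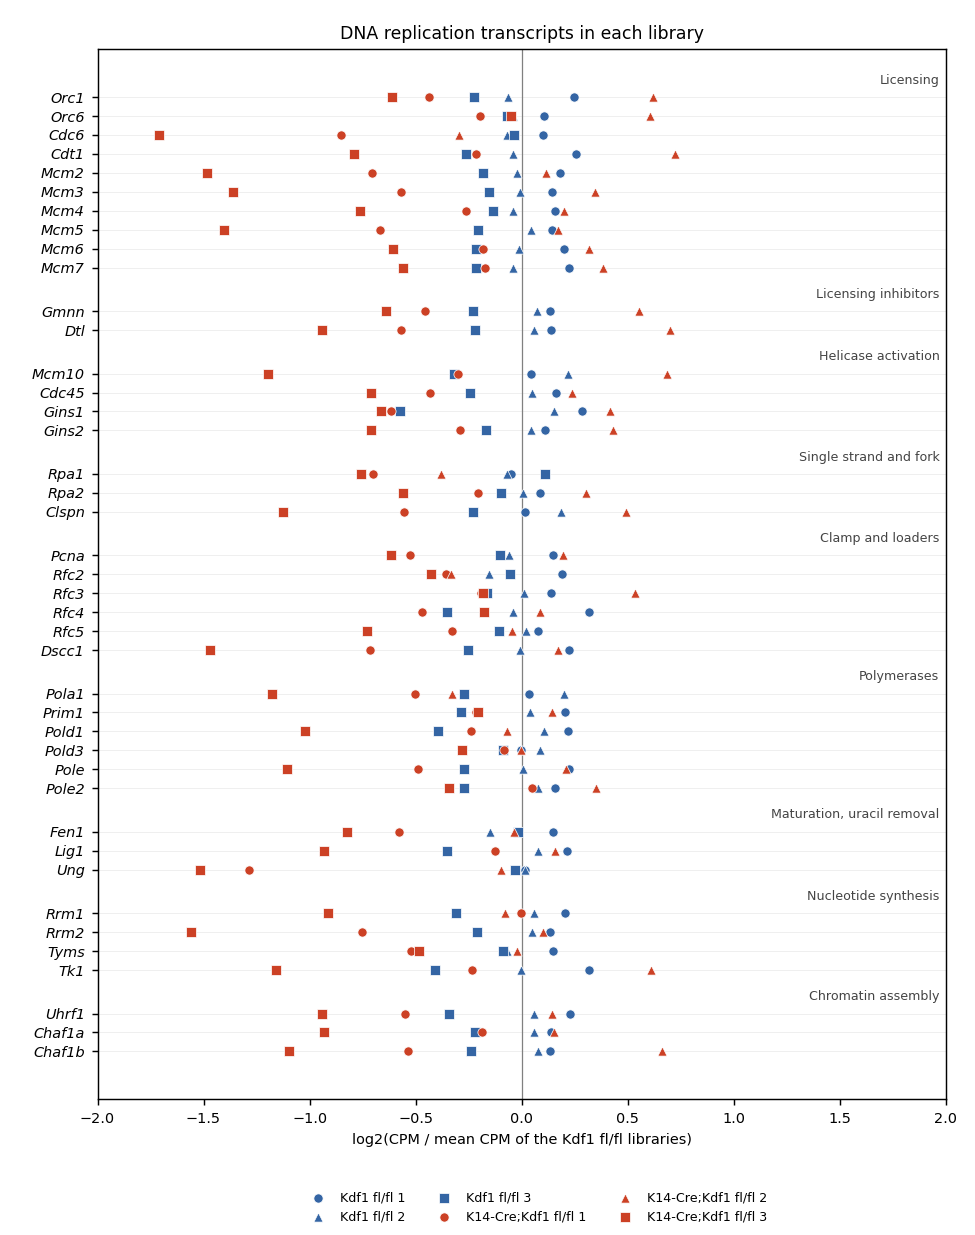
Each of the 41 genes in each library, as log2 of its CPM over the mean CPM of the *Kdf1* fl/fl libraries (x axis), with blue marks for the 3 controls and red marks for the 3 *K14-Cre;Kdf1* fl/fl libraries. Red triangles (replicate 2) are the highest red mark in 40 of 41 genes and red squares (replicate 3) the lowest in 36 of 41, while the blue marks stay close together.

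The 41 replication genes of the list moved together from library to library. Among the *K14-Cre;Kdf1* fl/fl libraries, replicate 2 had the highest CPM in 40 of 41 members and replicate 3 the lowest in 36 of 41, against 30.7% and 36.6% of all genes. Among the controls, replicate 1 was the highest in 35 members and replicate 3 the lowest in 37, against 38.8% and 34.5% of all genes. Replicate 3 of the knockouts was below every control in 38 members and replicate 1 in 29, against 34.0% and 39.3% of all genes. Replicate 2 of the knockouts was above every control in 22 members and below every control in 5, against 36.7% and 37.4% of all genes.

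The spread was wider in the knockouts. The median coefficient of variation of a member was 35.3% over the *K14-Cre;Kdf1* fl/fl libraries and 13.0% over the controls, and it was higher in the knockouts for 38 of 41 members. Over all genes the medians were 18.54% and 11.7%, with 70.0% of genes higher in the knockouts. These 6 libraries are too few to say which spread is usual for the genotype, and members are not replicates of it.

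The gap between replicates 2 and 3 of the knockouts had a median of 2.11-fold over the members and 0.998-fold over all genes. It ran from 1.07-fold for *Rfc2* to 3.69-fold for *Mcm10*. By role it was 2.50-fold for licensing, 2.37-fold for nucleotide synthesis, 1.70-fold for the polymerases and 1.62-fold for the clamp and its loaders. The genes whose fold was largest included *Tk1* (3.40-fold), *Chaf1b* (3.38-fold) and *Mcm3* (3.27-fold), and those with the smallest included *Rfc4* (1.20-fold), *Pold3* (1.21-fold) and *Prim1* (1.27-fold). Replicates 1 and 3 of the controls differed by a median of 1.28-fold over the members. Members with the E2F-type letters had a median gap of 2.12-fold between knockout replicates 2 and 3 (n = 16) and those without had 1.80-fold (n = 18), with ranges of 1.21 to 3.27-fold and 1.20 to 3.69-fold that covered each other.

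**Figure D3:**
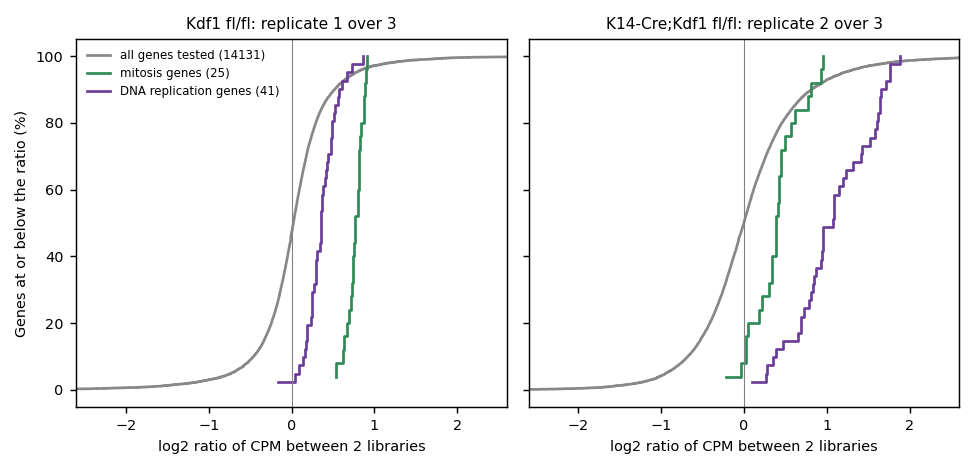
Cumulative share of genes (y axis, %) at or below each log2 ratio of CPM between 2 libraries of the same genotype (x axis), for replicate 1 over 3 of *Kdf1* fl/fl (left) and replicate 2 over 3 of *K14-Cre;Kdf1* fl/fl (right). The 41 DNA replication genes (purple) lie right of the mitosis genes (green) in the knockouts, at median folds of 2.11 and 1.31. In the controls they lie left of them, at 1.28 and 1.71, while all tested genes (grey) centre on 0. The 51 further replication genes, not drawn, had median folds of 1.25 in the knockouts and 1.14 in the controls.

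The size of the difference between genotypes depended on which knockout library was included. Without replicate 2, 22 of 41 members were lower at an unadjusted p of at most 0.05 in edgeR (background 8.85%), all 41 log2 fold changes were below 0 (47.6% of all genes) and their median was -0.53, while the median of all genes was 0.02. The count at an adjusted p of at most 0.05 was still 0, in a fit where 0.00699% of all genes were lower. Without replicate 3 of the knockouts, 22 of 41 log2 fold changes were below 0 (49.9% of all genes), the median was -0.02, and 2 members were lower at the unadjusted p (background 13.5%). Replicate 2 was the highest knockout library in 40 members and replicate 3 the lowest in 36. Leaving out replicate 2 therefore lowered nearly every log2 fold change, and leaving out replicate 3 raised most of them. The members vary together, so these counts have no test. Read by replicate number, the knockout was below the control in 41 members for replicate 1, in 9 for replicate 2 and in 38 for replicate 3, against 55.5%, 48.0% and 49.3% of all genes. It was below in all 3 of these pairs in 9 members and in 27.0% of all genes.

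The 6 subunits of the Mcm ring are present in equal number in the complex, and their transcripts differed in level. Within each library the share of each subunit in the summed TPM of the 6 genes was computed, a measure chosen after the values had been seen, in which a rise of 1 share lowers the others. *Mcm2* took 13.8, 13.7 and 13.9% of the sum in the controls and 10.9, 12.2 and 9.04% in *K14-Cre;Kdf1* fl/fl. *Mcm5* took 12.7, 13.6 and 12.9% against 10.6, 12.1 and 9.07%. For both, every knockout share was below every control share.

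*Mcm6* took 22.0, 21.9 and 21.4% in the controls and 24.7, 22.3 and 26.2% in the knockouts, and *Mcm7* 27.4, 26.3 and 26.3% against 30.4, 28.7 and 33.8%. For these 2 subunits every knockout share was above every control share. The level of *Mcm7*, and so its share, depends on how reads in exons that overlap *Ap4m1* and *Cops6* were assigned. The shares of *Mcm3* and *Mcm4* overlapped between groups. A two-sided exact permutation test gave p = 0.1 for each of *Mcm2*, *Mcm5*, *Mcm6* and *Mcm7*, which is the smallest p that 3 against 3 libraries allow, and 0.15 after Benjamini-Hochberg adjustment over the 6 subunits. The exact p was 0.4 for *Mcm3* and 0.8 for *Mcm4*. The sum itself was 461, 424 and 329 TPM in the controls and 352, 506 and 216 TPM in the knockouts, and the shares of *Mcm2* and *Mcm5* were lowest, and those of *Mcm6* and *Mcm7* highest, in the knockout library with the lowest sum.

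**Figure D4:**
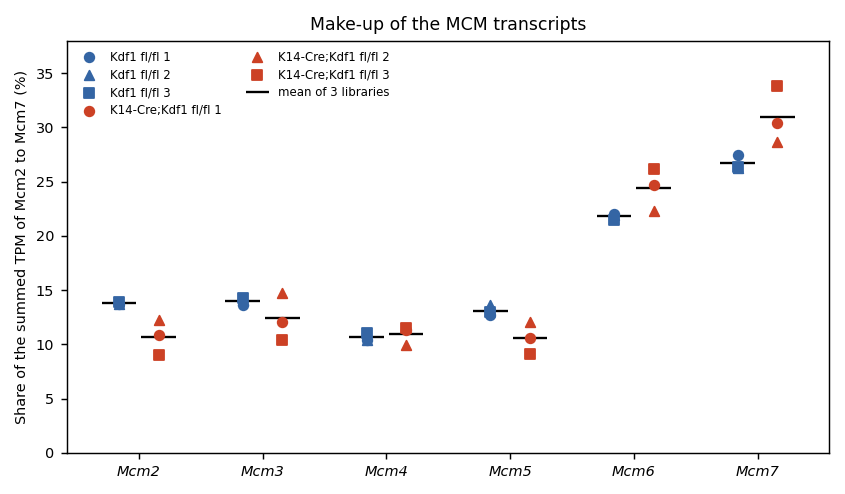
Share of each subunit in the summed TPM of *Mcm2* to *Mcm7* (y axis, %) in every library, with a line at the mean of the 3 libraries of each genotype. *Mcm2* and *Mcm5* have lower shares in each knockout library (red) than in any control (blue), and *Mcm6* and *Mcm7* have higher ones.

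Replication genes outside the list were also mostly below 0. Of 51 further replication genes, 6 were lower and 0 higher at an unadjusted p of at most 0.05 in edgeR, beside 11.6% of all genes lower and 13.0% higher, and 0 passed the adjusted p. In 41 of the 51 the log2 fold change was below 0, beside 50.5% of all genes, and the median was -0.18. The gene with the lowest p was *Chtf8*, of the same cohesion-linked clamp loader as *Dscc1*, with 205.0, 180.3 and 176 CPM in the controls and 139, 119 and 130.2 CPM in the knockouts. Its groups did not overlap, at -0.53 ± 0.12 (SE), with an adjusted p of 0.0716 in edgeR and 0.0335 with the replicate block. DESeq2 called 3 of the 51 lower, *Chtf8*, *Mcm8* and *Ctps*, beside 5.25% of all genes. The lowest p among those above 0 was that of *Samhd1*, which breaks down deoxynucleotides, at 0.71 ± 0.36 (SE, adjusted p 0.265 in edgeR). Between replicates 2 and 3 of the knockouts these 51 genes differed by a median of 1.25-fold.

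Polymerases of DNA repair, lesion bypass and mitochondria, which do not copy the bulk of the nuclear genome, had a median of 0.11 over the 12 tested of 13 listed. At an unadjusted p of at most 0.05 in edgeR 3 were higher and 0 lower, beside 13.0% and 11.6% of all genes. None passed the adjusted p. *Rev1*, a bypass polymerase, had 30.6, 30.1 and 26.8 CPM in the controls and 41.4, 50.6 and 38.5 CPM in the knockouts, with no overlap (0.58 ± 0.15 SE on the log2 scale). The adjusted p of *Rev1*, 0.0850 in edgeR, became 0.0474 with the block, and DESeq2 gave 0.0118. *Poll*, a repair polymerase, was the lowest in p below 0, at -0.39 ± 0.17 (SE, adjusted p 0.205 in edgeR).

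Among 16 genes of the E2F and RB families and their partners, which control the transcription of the replication genes, 0 passed the adjusted p in edgeR. At an unadjusted p of at most 0.05 in edgeR 5 were lower and 1 was higher, beside 11.6% and 13.0% of all genes. *Tfdp2*, a dimer partner of E2F proteins, had 59.4, 54.2 and 50.9 CPM in the controls and 75.6, 86.0 and 80.2 CPM in the knockouts. The groups did not overlap, at 0.56 ± 0.11 (SE), with an adjusted p of 0.0674 in edgeR, 0.0409 once blocked by replicate number, and 0.000679 in DESeq2. *E2f3*, an activator of the family, had 47.2, 47.3 and 43.2 CPM against 36.4, 36.0 and 29.9 CPM, at -0.43 ± 0.13 (SE, adjusted p 0.113 in edgeR). *Rb1*, the repressor of E2F proteins, overlapped between groups at -0.81 ± 0.34 (SE), with an adjusted p of 0.199 in edgeR and 0.0146 with the replicate block.

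Of 14 tested genes for cyclins, their kinases and inhibitors, 1 was lower and 2 were higher at the unadjusted p in edgeR and 0 passed the adjusted p. The shares of all genes at that unadjusted p were 11.6% lower and 13.0% higher. *Ccnd1*, which encodes the G1 cyclin D1, had 633, 530.4 and 455 CPM in the controls and 326, 390.2 and 269 CPM in the knockouts. Every knockout library was below every control, at -0.72 ± 0.19 (SE), with an adjusted p of 0.0896 in edgeR, 0.0348 once blocked by replicate number, and 0.00934 in DESeq2. *Cdkn1a*, which encodes the kinase inhibitor p21, was at -0.94 ± 0.51 (SE) and passed with the block alone, at an adjusted p of 0.0146 against 0.300 without it in edgeR. *Cdkn1c*, the inhibitor p57, was at 0.90 ± 0.31 (SE), with an adjusted p of 0.142 in edgeR and 0.0428 in DESeq2.

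The mitosis genes differed from the 41 replication genes of the list in how they varied. None of 25 passed at the adjusted or the unadjusted p in edgeR, and 0 passed the adjusted p with the block or in DESeq2. Their log2 fold changes had 16 below 0 and a median of -0.10. The proliferation marker *Mki67* was at -0.15 ± 0.30 (SE, adjusted p 0.783 in edgeR). *Bub1b*, of the spindle checkpoint, was at -0.35 ± 0.21 (SE), and *Cdk1*, the mitotic kinase, at 0.19 ± 0.27 (SE). Their median coefficient of variation was 14.7% in the knockouts and 25.8% in the controls, and it was higher in the knockouts for 4 of 25 genes, against 38 of 41 replication genes. Between replicates 1 and 3 of the controls the mitosis genes differed by a median of 1.71-fold. Genes of a list vary together, so these shares have no test.

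The summed level of the 41 replication genes was 2052, 1941 and 1499 TPM in the controls and 1572, 2189.8 and 1080.3 TPM in *K14-Cre;Kdf1* fl/fl. For the 25 mitosis genes it was 2159, 1972 and 1175.5 TPM against 1735, 1965 and 1503 TPM. In both genotypes replicate 3 was the lowest for both lists. The mitosis sum covered the wider range in the controls and the replication sum the wider range in the knockouts.

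Markers of cell state and of other cells also moved across these libraries. The summed level of 7 ameloblast genes was 4996.0, 17322 and 35311 TPM in the controls and 213, 431 and 1269.9 TPM in the knockouts, so that in each genotype replicate 3, with the lowest replication sum, had the highest ameloblast sum. *Amelx* made up most of the control sums, at 4017, 15804 and 32209 TPM. *Amelx*, *Ambn*, *Enam* and *Mmp20* were highest in replicate 3 of the controls, *Odam* and *Amtn* in replicate 1 and *Klk4* in replicate 2. Replicate 1 of the knockouts had the lowest ameloblast sum but not the highest replication sum. Of these 7 genes 5 were tested and all 5 were lower at the unadjusted p in edgeR (background 11.6%). The 12 dental epithelial markers summed to 8209.6 to 11289 TPM in the controls and 4903.5 to 8088 TPM in the knockouts. The log2 fold change was below 0 in 8 of 12 (50.5% of all genes). At the unadjusted p in edgeR 5 were lower and 1 was higher (background 11.6% and 13.0%). The epithelial marker *Cdh1* passed the criterion, at -1.50 ± 0.21 (SE, adjusted p 0.0498 in edgeR). The 12 immune markers were all above 0, with 9 higher at the unadjusted p (background 13.0%). They summed to 97.4, 221 and 115 TPM in the controls and 638, 304 and 199.7 TPM in the knockouts.

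The 11 neutrophil precursor markers summed to 20.5 to 26.8 TPM in the controls and 157 to 422 TPM in the knockouts. At the adjusted p in edgeR 5 of the 8 tested were higher (background 0.177%). The 10 endothelial markers were all above 0, with sums of 193 to 256 and 231 to 703 TPM, and 4 were higher at the unadjusted p (background 13.0%). No marker of these 5 lists was at 0 in every library of a genotype. The immune, neutrophil precursor and endothelial sums were highest in replicate 1 of the knockouts, which was neither the highest nor the lowest knockout library for the replication sum. Of 14 dental papilla markers 8 were higher and 1 was lower at the unadjusted p in edgeR (background 13.0% and 11.6%). Their median log2 fold change was 1.20, and 6 were higher and 1 was lower with no overlap (background 14.5% and 16.2%). *Twist1*, a transcription factor of mesenchyme named after its values were seen, passed the criterion. The sum of these 14 overlapped between genotypes, at 1805 to 8649 TPM in the controls and 4389 to 5659 TPM in the knockouts. The sums of the bone, erythroid and muscle markers also overlapped. Of 8 bone markers 1 was lower and 0 were higher at the adjusted p in edgeR (background 0.368% and 0.177%). At the unadjusted p 1 was lower and 2 were higher (background 11.6% and 13.0%). The bone marker *Spp1* was higher with no overlap, at 3.87 ± 0.77 (SE, adjusted p 0.0656 in edgeR). The part of cell composition in the levels of the replication genes was not tested.

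**Figure D5:**
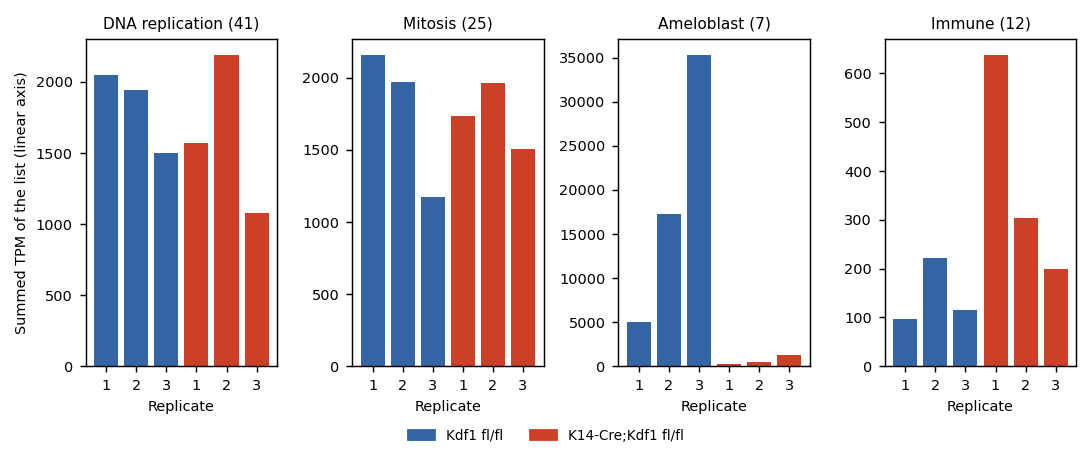
Summed TPM (y axis, linear, a separate scale in each panel) of the 41 DNA replication genes, 25 mitosis genes, 7 ameloblast genes and 12 immune markers in each of the 6 libraries. Replicate 2 of *K14-Cre;Kdf1* fl/fl (red) has the highest replication sum, 2189.8 TPM, and replicate 3 the lowest, 1080.3 TPM, while the ameloblast sum is at most 1269.9 TPM in the red bars and at least 4996.0 TPM in the blue.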

How the data were processed

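The deposited table holds 18152 genes of 6 libraries from laser-captured IEE at E18.5. The deposited estimated counts are the authors' reads per gene, without normalisation, and 10.9% to 11.5% of the values per library were not whole numbers. The deposited TPM values are the authors' levels scaled by length to 1 total, and the deposited FPKM values, not used here, are scaled by length and library size. The authors' group averages were not used. The submitters' processing notes name BWA 0.7.12, Picard 2.6.0 and StringTie without their roles. The labels name a TruSeq kit, whereas the study's methods do not. The genome build, annotation, counting program and strand setting are not given in the sources used here.

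Counts were rounded and fitted over the whole table in R 4.3.3 with edgeR 4.0.16. Filtering with filterByExpr kept 14131 genes, TMM factors were 0.95 to 1.03, and robust quasi-likelihood F-tests were two-sided with Benjamini-Hochberg adjustment over all genes tested. The biological coefficient of variation was 25.4%. SE is the absolute log2 fold change divided by the square root of F. CPM used TMM-scaled library sizes. The criterion is that of the paper's methods. Alternatives were DESeq2 1.42.0, limma 3.58.1 on counts (voom) and on log2 TPM, other scalings and filters, a replicate block and each library left out. The fit without the robust option was chosen after seeing the data. The scripts were tested on simulated data.

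No library was a duplicate, since replicate counts varied 36.2 to 78 times more than sampling alone gives. Deviations from the group means correlated between libraries of the same number at 0.135, 0.324 and 0.499. The correlation between libraries of different numbers was not computed. The numbers were read as pairs on this check alone, since neither the labels nor the study's methods tie the sequenced mice by number.

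The 41 members, the lists and the tests were chosen with earlier results of these data known. Values per library are given for members past a threshold and, in each role, for the member with the largest absolute log2 fold change, the lowest p and the highest mean TPM. In the other replication, repair polymerase, E2F and RB, cyclin and mitosis lists the gene with the lowest p in each direction is named. Other genes named were chosen after their values were seen. Promoter sequences are RefSeq's, from GRCm38.p6, matched by symbol. Counts and intervals cover the spread between these libraries, and a count floor covers counting error only.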

Additional observations from a re-analysis of the deposited data

How the results depend on the processing

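The count of members past the criterion was 0 in edgeR and in all 11 other alternatives and 6 fits without 1 library. The count lower at the adjusted p was 0 in edgeR and 1 (*Rpa1*) in DESeq2 and with the replicate block, and it was 0 in every fit without 1 library. At the unadjusted p, 4 members were lower, 2 with scaling by library size alone or with log2(TPM + 0.1), 8 with the replicate block, and 1 to 22 without 1 library, the 22 without replicate 2 of *K14-Cre;Kdf1* fl/fl. Among the lists of further replication, repair polymerase, E2F and RB, and cyclin genes, those past the adjusted p numbered 0 in edgeR and, in DESeq2 and with the block, 3 and 1 of the further replication genes, 1 and 1 of the repair polymerases, 1 and 2 of the E2F and RB genes and 2 and 2 of the cyclin genes. Of all genes, 5.25% were lower at the adjusted p in DESeq2 and 4.44% with the block. Beside *Krt14*, *Rpa1*, *Chtf8*, *Rev1*, *Tfdp2*, *Rb1*, *Ccnd1*, *Cdkn1a* and the 5 tested ameloblast genes, the block changed no call of a gene given by name. That block was read from these same data, without a label that ties the libraries. The cause of these shifts was not tested.

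The median log2 fold change of the members was -0.24, between -0.31 and -0.19 over the alternatives with all libraries and between -0.53 and -0.02 with 1 library left out. For single-strand and fork genes it ran from -0.70 to 0.075 and for chromatin assembly from -0.70 to 0.0093 with 1 library left out, the lowest in both without replicate 2 of *K14-Cre;Kdf1* fl/fl. *Cdt1*, at 0.04, was at -0.076 with the block, -0.0725 in limma-voom, -0.019 on log2(TPM + 0.1) and -0.015 on log2(TPM + 1), and *Orc1*, at -0.03, was at 0.021 with library size alone. The sign of 21 members turned in a fit without 1 library. The lowest and highest log2 fold changes over these 6 fits were -0.49 and 0.20 for *Orc1*, -0.091 and 0.33 for *Orc6*, -0.44 and 0.35 for *Cdt1*, -0.46 and 0.0043 for *Mcm4*, -0.35 and 0.11 for *Mcm6*, -0.32 and 0.15 for *Mcm7*, -0.51 and 0.15 for *Gmnn*, -0.71 and 0.21 for *Dtl*, -0.65 and 0.29 for *Mcm10*, -0.61 and 0.0049 for *Gins1*, -0.45 and 0.13 for *Gins2*, -0.34 and 0.088 for *Rpa2*, -0.78 and 0.075 for *Clspn*, -0.16 and 0.24 for *Rfc3*, -0.32 and 0.022 for *Rfc4*, -0.20 and 0.035 for *Prim1*, -0.10 and 0.23 for *Pole2*, -0.44 and 0.041 for *Lig1*, -0.59 and 0.27 for *Tk1*, -0.48 and 0.0093 for *Chaf1a*, -0.76 and 0.20 for *Chaf1b*.

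With 3 libraries a group the standard errors of the members were 0.12 to 0.43, and 17 of the 95% intervals reached -1, so that a fall of that size lay within the error of these genes. Members of low level, such as *Dscc1* with 33 counts in 1 library, also carry counting error. Levels of *Pcna*, *Tyms* and of genes that overlap others depend on how reads were assigned.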
